A study of Homo sapiens with 18 samples.

Results

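The 10 genes described here are Eph receptors and B-type ephrins measured by RNA sequencing in PC3, an established cell line from a human prostate cancer. They are the receptors EPHA1, EPHA2, EPHA4, EPHB1, EPHB2, EPHB3, EPHB4 and EPHB6 and the ligands EFNB1 and EFNB2. These 10 were taken by gene symbol from the 20365 genes of the expression tables, where the family has 14 receptors and 8 ephrins. They were chosen by family and by the measured levels of EPHB1 and EPHB2, which differ between EloB KD and EloC KD, so the levels of all members in that comparison are given as a description with no test, as are EPHB1 and EPHB2 in both comparisons with Control KD. The study has 18 libraries in 6 groups of 3. In 1 experiment lentiviral short hairpin RNAs targeted Elongin B in EloB KD cells and Elongin C in EloC KD cells, beside Control KD cells, all in 10% serum. In a separate experiment, cells in 2.5% serum were exposed for 24 h to 12500 nM of a WT BC-box peptide, its mutant form or a scrambled peptide. The labels give neither the hairpin sequences nor the number of hairpins per target, nor the origin of the replicates, so the p-values here rest on a spread between samples that may be technical.

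Eph receptors are the largest family of receptor tyrosine kinases, and their ligands, the ephrins, are held on the membrane of the neighbouring cell. A-type ephrins are anchored by a lipid and mostly bind EphA receptors, whereas B-type ephrins span the membrane, mostly bind EphB receptors and can themselves signal into the cell that carries them. In epithelia the pairs steer cell sorting, contact repulsion and migration through small GTPases, and EPHA2 is known to be abundant in PC3 cells. Elongin B and Elongin C form a dimer that works with Elongin A in transcription and is the adaptor through which BC-box proteins join cullin ubiquitin ligases.

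Each knockdown library held 40.3 to 57.2 M counted reads, and each peptide library 31.7 to 34.7 M. The hairpins lowered their targets: on the log2 scale ELOB fell by 2.82 ± 0.20 (SE) in EloB KD and ELOC fell by 3.12 ± 0.10 in EloC KD, both against Control KD (limma, adjusted p = 3.55e-05 and 1.41e-07). The epithelial markers KRT8, KRT18 and EPCAM and the mesenchymal gene VIM were counted in all 18 libraries and the prostate luminal gene KLK3 in none. The immune markers PTPRC and CD3E stayed at or below 13.4 normalised counts, whereas PECAM1 and CD68 had at least 689.6 in every library and COL1A1 reached 2464. The endothelial markers CDH5 and VWF stayed at or below 24.6 and 10.2. Of the other fibroblast markers, DCN stayed at or below 17.2 and PDGFRB at or below 56.2, while COL1A2 and COL3A1 reached 257 and 229. What part, if any, other cells have in the results was not tested, and in bulk RNA a change in the number of cells expressing a gene and a change in RNA per cell cannot be told apart.

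The promoters of the 4 receptors with the largest differences between the knockdowns are shown to give the sequence around their starts: EPHB1 and EPHB3, whose means were highest in EloB KD, and EPHB2 and EPHA4, whose means were highest in EloC KD. Each runs 5′ to 3′ from 250 bases before to 50 bases after the RefSeq start (GRCh38.p14), at chr3:134795010-134795309 (plus strand), chr3:184561535-184561834 (plus strand), chr1:22710588-22710887 (plus strand) and chr2:221574153-221574452 (minus strand). Capitals mark the GC box, GGGCGG on either strand.
EPHB1: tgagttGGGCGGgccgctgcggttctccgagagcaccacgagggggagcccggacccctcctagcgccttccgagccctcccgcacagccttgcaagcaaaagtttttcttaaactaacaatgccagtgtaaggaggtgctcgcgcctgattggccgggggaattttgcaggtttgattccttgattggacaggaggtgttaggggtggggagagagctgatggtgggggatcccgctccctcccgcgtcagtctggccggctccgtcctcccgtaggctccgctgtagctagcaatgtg
EPHB3: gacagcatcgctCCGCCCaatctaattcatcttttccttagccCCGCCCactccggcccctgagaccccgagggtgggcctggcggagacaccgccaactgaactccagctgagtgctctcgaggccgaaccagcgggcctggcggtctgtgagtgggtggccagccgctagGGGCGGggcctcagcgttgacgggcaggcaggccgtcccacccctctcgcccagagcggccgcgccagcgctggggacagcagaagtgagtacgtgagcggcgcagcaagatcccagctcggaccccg
EPHB2: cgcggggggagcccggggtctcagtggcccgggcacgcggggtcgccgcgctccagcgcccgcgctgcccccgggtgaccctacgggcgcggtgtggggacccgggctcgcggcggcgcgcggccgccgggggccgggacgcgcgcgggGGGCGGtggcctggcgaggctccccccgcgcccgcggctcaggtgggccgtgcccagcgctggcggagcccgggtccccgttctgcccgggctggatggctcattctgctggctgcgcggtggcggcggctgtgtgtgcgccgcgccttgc
EPHA4: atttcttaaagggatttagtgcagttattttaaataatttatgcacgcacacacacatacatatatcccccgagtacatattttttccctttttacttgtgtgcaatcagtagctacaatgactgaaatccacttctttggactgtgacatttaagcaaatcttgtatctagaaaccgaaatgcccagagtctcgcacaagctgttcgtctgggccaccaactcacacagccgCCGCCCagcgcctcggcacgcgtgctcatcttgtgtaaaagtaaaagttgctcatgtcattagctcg

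All 10 members were matched to a RefSeq promoter and all 10 promoters held a GC box, which 45.0% of 35116 promoters of the same length held. The EPHB2 window had 83% G and C and 49 CG dinucleotides, the EPHB3 window 69% and 26, the EPHB1 window 61.3% and 19 and the EPHA4 window 43% and 12, against medians of 58.7% and 14 over all promoters. The TATA box core TATAAA, searched on both strands, was in 1 of the 10 windows (EFNB2) against 11.5% of all promoters, and the AP-1 motif TGANTCA was in none against 7.71%. These are matches of letters in a window and say nothing of which factor acts there. The EPHB1 window lies inside the GENCODE span of the gene, chromosome 3 134597801 to 135260467, downstream of that annotation's start. On the same chromosome EPHB3 spans 184561784 to 184582409, while EPHB2 spans 22710839 to 22921500 of chromosome 1 and EPHA4 spans 221418027 to 221574202 of chromosome 2 (GRCh38). The EPHB6 window, chromosome 7 142862506 to 142862805, also lies inside the span of its gene, 142855061 to 142871094, downstream of the annotated start. That window had 48% G and C and 3 CG dinucleotides. EPHB1, EPHA1 and EPHB4 overlap KY, ZYX and SLC12A9 on the opposite strand, and the strand setting used in counting is not given in the sources used here, so reads of each such pair may not be fully separated.

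Levels of different genes were compared per length, as reads per kb of exon scaled to the counted reads of the library (RPKM). The length covers every annotated exon of a gene, used in these cells or not, and the order of genes depends on it. EPHB2 has 12516 bp and EPHB3 4532 bp, and in Control KD their mean normalised counts were 1448 and 719, the reverse of their per-length order. EPHA2, a receptor for A-type ephrins, was the highest member in all 6 groups, at 152 ± 7.09 RPKM in EloB KD, 112 ± 10.2 in EloC KD and 98.4 ± 20.7 in Control KD (SD, n = 3 each). It made up 68.2% to 79.0% of the summed per-length level of the 14 Eph receptors in knockdown cells, and 79.0% to 82.9% in peptide-treated cells. The ligand EFNB1 followed, and after it EPHB4, the main receptor of ephrin-B2, in every group, with ranges that did not overlap one another. The other 7 members were lower, and their order depended on the group. In Control KD they followed as EFNB2 (4.13 ± 0.455), EPHB3 (3.19 ± 0.566), EPHB2 (2.33 ± 0.302), EPHA4 (1.66 ± 0.588), EPHB6 (0.756 ± 0.206), EPHA1 (0.175 ± 0.0176) and EPHB1 (0.0311 ± 0.00574). Of these neighbours, EPHB3 and EPHB2 had overlapping ranges, as had EPHB2 and EPHA4. In EloB KD the per-length level of EPHB3 was 8.82 ± 1.40, above EFNB2 at 5.80 ± 0.565. In EloC KD that of EPHA4 was 4.87 ± 1.35, with a range of 3.82 to 6.40 that held all EFNB2 values (5.08 ± 0.0794).

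**Figure D1:**
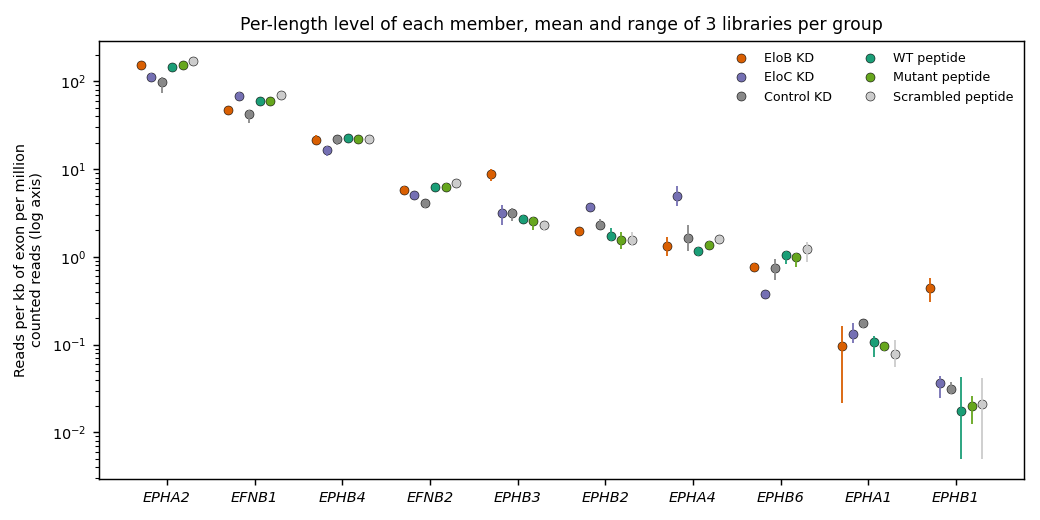
Per-length level of the 10 members (y axis, RPKM, log axis) in the 6 groups; points are means and lines the range of 3 libraries, with libraries at 0 drawn down to the lower end of the line. EPHA2, EFNB1 and EPHB4 stand above the other members in all groups, and EPHB1 lies lowest except in EloB KD.

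EPHB1, a receptor for B-type ephrins, was near the counting floor except in EloB KD. It had 182, 148 and 98.5 normalised counts in EloB KD libraries 1 to 3, 14.8, 15.0 and 8.42 in EloC KD, and 9.42, 13.2 and 9.74 in Control KD. The EloB KD libraries lay above all others, and EloC KD and Control KD overlapped. Behind these values stood 104 to 195 reads per library in EloB KD, 8 to 15 in EloC KD and 8 to 15 in Control KD. The fitted log2 fold change was 3.58 ± 0.32 (SE) for EloB KD and 0.20 ± 0.32 for EloC KD, both over Control KD, and 3.38 ± 0.32 for EloB KD over EloC KD. With so few reads outside EloB KD the size depends on the pseudocount: with 5 in place of 1 the first of these was 3.19.

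EPHB2, a second EphB receptor, had the opposite order between the knockdowns. It had 1162, 1077 and 1192 normalised counts in EloB KD, 2196, 2401 and 2302 in EloC KD, and 1318, 1386 and 1640.0 in Control KD. The 3 groups did not overlap, with EloB KD lowest and EloC KD highest. The log2 fold change was -0.34 ± 0.10 (SE) for EloB KD and 0.67 ± 0.10 for EloC KD, both over Control KD, and -1.01 ± 0.10 for EloB KD over EloC KD.

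EPHB3, which like EPHB2 binds B-type ephrins, had 2032, 1548 and 1969 normalised counts in EloB KD, 718, 542 and 869 in EloC KD, and 576, 787 and 795 in Control KD. All EloB KD libraries lay above the others, and EloC KD overlapped Control KD. EPHB3 rose in EloB KD against Control KD by 1.37 ± 0.19 on the log2 scale (SE; limma, adjusted p = 0.00100; 0.00592 at most under the alternatives). In EloC KD the change was -0.03 ± 0.19 (95% interval -0.45 to 0.40; adjusted p = 0.917).

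EPHA4, an EphA receptor that also binds B-type ephrins, had 459, 598 and 359 normalised counts in EloB KD, 1638, 2485 and 1426 in EloC KD, and 567, 878 and 433 in Control KD. The EloC KD libraries, the lowest at 1426, lay above every library of the other groups, which overlapped each other. EPHA4 rose in EloC KD against Control KD by 1.58 ± 0.28 on the log2 scale (SE; limma, adjusted p = 0.00138). In EloB KD the change was -0.38 ± 0.28 (adjusted p = 0.382), and with the replicate number as a block the adjusted p was 0.0101, within a range of 0.0101 to 0.840 over the alternatives. Replicate 2 was the highest and replicate 3 the lowest EPHA4 value in each of the 3 groups.

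EPHA2, the dominant receptor, had 29044, 30987 and 27976 normalised counts in EloB KD, 21992, 22425 and 25401 in EloC KD, and 15499, 22608 and 22924 in Control KD. EloB KD libraries lay above all others, EloC KD overlapped Control KD, and Control KD replicate 1 was the lowest of the 9. EPHA2 rose in EloB KD by 0.55 ± 0.14 on the log2 scale against Control KD (SE; limma, adjusted p = 0.0209). Without EloB KD replicate 1 or 2 its adjusted p was above 0.05, with 0.0654 the highest over the alternatives. In EloC KD the change was 0.21 ± 0.14 (95% interval -0.10 to 0.53; adjusted p = 0.247).

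Both ligands among the members were higher in EloC KD than in Control KD, and EFNB2 was higher in EloB KD as well. EFNB1 had 7459.9, 6697 and 7744 normalised counts in EloB KD, 10514, 11287 and 12414 in EloC KD, and 5553, 7864 and 7333 in Control KD, with EloC KD above all other libraries. EFNB1 rose in EloC KD by 0.73 ± 0.13 on the log2 scale (SE; limma, adjusted p = 0.00124), and in EloB KD the change was 0.09 ± 0.13 (adjusted p = 0.657). EFNB2, the ephrin-B ligand best known from arterial vessels, had 1449, 1243 and 1355 normalised counts in EloB KD, 1269.6, 1287 and 1264 in EloC KD, and 1081, 912 and 1101 in Control KD. Both knockdowns lay above every Control KD library. EFNB2 rose by 0.39 ± 0.11 in EloB KD (SE; limma, adjusted p = 0.0256) and by 0.31 ± 0.11 in EloC KD (adjusted p = 0.0361). Leaving out EloB KD replicate 1 or 3 or Control KD replicate 2 ended the first of these calls, and leaving out any EloC KD replicate or Control KD replicate 2 the second, as did fitting only the 2 groups compared; adjusted p reached 0.0983 in EloB KD and 0.143 in EloC KD.

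EPHB6, which lacks kinase activity, and EPHB4 fell in EloC KD. EPHB6 had 167, 212 and 187 normalised counts in EloB KD, 97.0, 101 and 101 in EloC KD, and 144, 255 and 202 in Control KD. The EloC KD libraries lay close together below all others, while EloB KD lay within the Control KD range. On the log2 scale EPHB6 fell by 0.96 ± 0.21 in EloC KD against Control KD (SE; limma, adjusted p = 0.00403), and in EloB KD the change was -0.06 ± 0.21 (adjusted p = 0.879). EPHB4 had 7192, 5822 and 6276 normalised counts in EloB KD, 5144, 4707 and 5884 in EloC KD, and 6048, 7520.4 and 7348 in Control KD. EloC KD lay below Control KD and overlapped EloB KD. EPHB4 fell by 0.41 ± 0.12 in EloC KD (SE; limma, adjusted p = 0.0191). Leaving out EloC KD replicate 1 or 2 or Control KD replicate 2 or 3 ended that call, with adjusted p up to 0.0757.

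EPHA1, a receptor known from epithelia, was low. It had 23.3, 4.80 and 36.0 normalised counts in EloB KD, 40.6, 28.9 and 24.2 in EloC KD, and 44.3, 36.9 and 42.6 in Control KD. The EloB KD libraries differed widely among themselves and all lay below Control KD. The log2 change was -1.28 ± 0.56 in EloB KD (SE; limma, adjusted p = 0.135, with 0.0488 to 0.330 over the alternatives) and -0.42 ± 0.56 in EloC KD (adjusted p = 0.575). The EloB KD change was -0.49 without EloB KD replicate 2 (adjusted p = 0.330) and -1.83 without EloB KD replicate 3 (adjusted p = 0.0488).

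**Figure D2:**
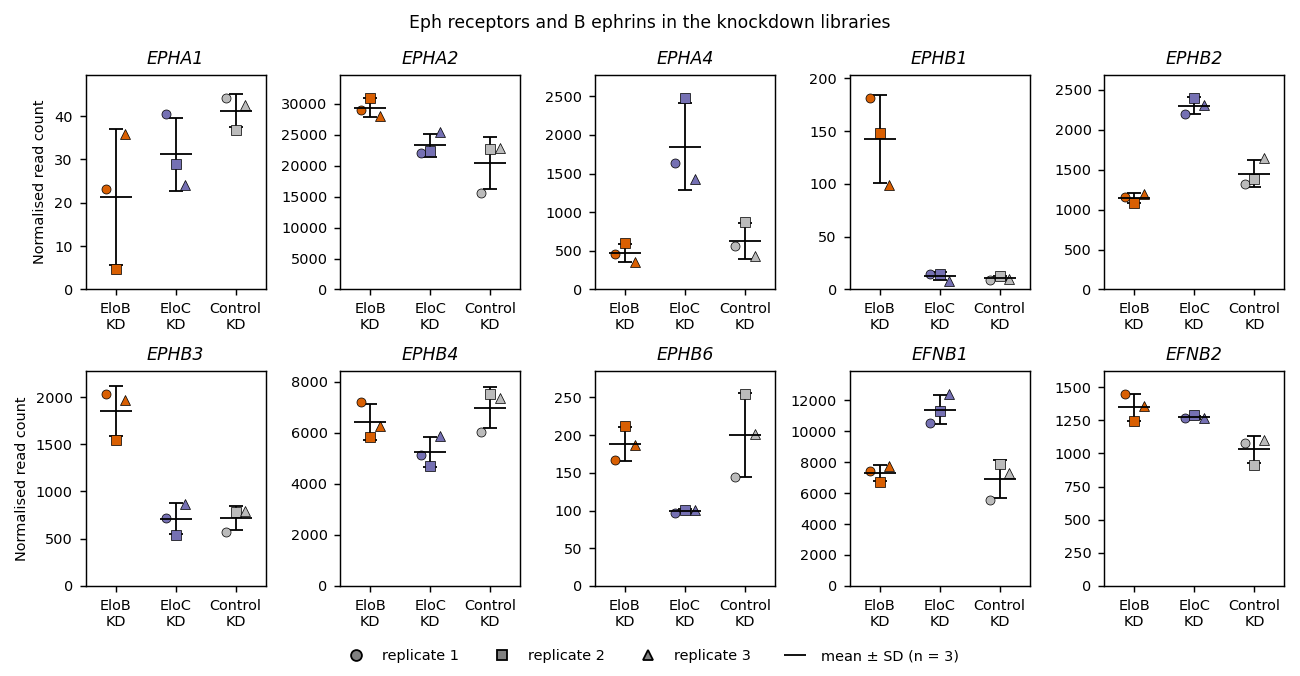
Normalised read count (y axis) of each member in EloB KD, EloC KD and Control KD; points are libraries, shaped by replicate number, and bars the mean ± SD of 3 libraries. EPHB1 and EPHB3 are highest in EloB KD, and EPHA4, EPHB2 and EFNB1 in EloC KD.

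Of the 8 members tested against Control KD, 3 rose and 0 fell in EloB KD, and 3 rose and 2 fell in EloC KD. The called share was 37.5% in EloB KD against 20.5% of all 13764 genes (9.34% higher, 11.2% lower), and 62.5% in EloC KD against 42.5% (21.3% higher, 21.2% lower). With the replicate number as a block, 3 rose and 1 (EPHA4) fell in EloB KD, where the block called 36.3% of all genes. In EloC KD the block gave 3 higher and 2 lower, where it called 57% of all genes. With 8 genes these shares are near the background and are no result about the members. The median log2 fold change of the 8 was 0.02 in EloB KD and 0.09 in EloC KD, beside 0.0035 and 0.0068 over all genes tested. Of the same 8 members, without EPHB1 and EPHB2, the groups did not overlap for 4 in EloB KD and 5 in EloC KD, against 38.4% and 53.7% of all genes, shares near the background. Both comparisons share the Control KD libraries, so their values are set side by side only. Between EloB KD and EloC KD the log2 differences ranged from 3.38 for EPHB1, 1.40 for EPHB3 and 0.91 for EPHB6 down to -0.64 for EFNB1, -0.86 for EPHA1, -1.01 for EPHB2 and -1.96 for EPHA4. In that comparison, which chose the genes, 7 of 10 members had groups that did not overlap, beside 56.3% of all genes, and nothing is read from that.

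**Figure D3:**
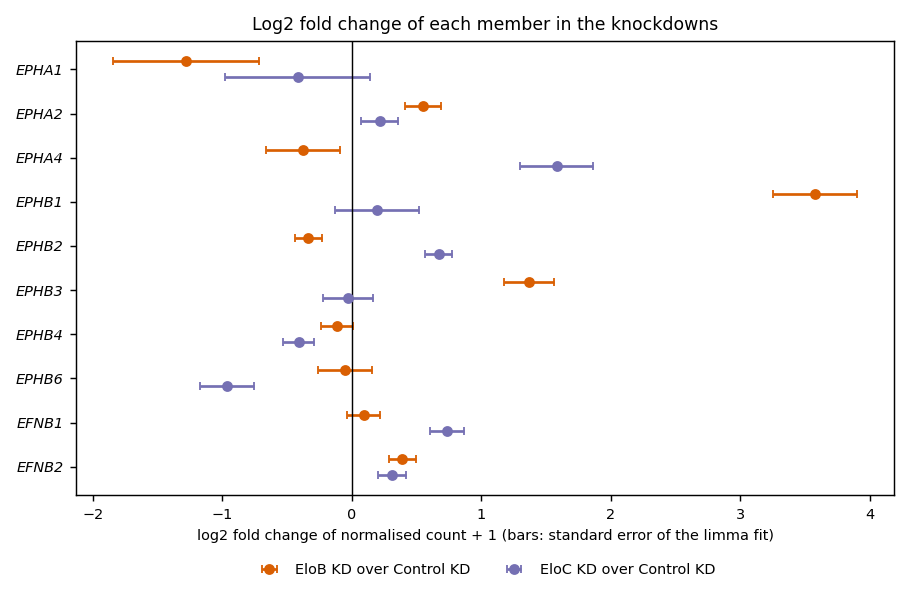
Log2 fold change over Control KD (x axis) of each member in EloB KD and EloC KD; bars are standard errors of the limma fit. EPHB1 and EPHB3 lie to the right in EloB KD and near 0 in EloC KD, whereas EPHA4 and EFNB1 lie to the right in EloC KD.

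The genes whose levels followed EPHB1 most closely over the 9 knockdown libraries, among 12246 genes with a mean of at least 50, were CEP89 (Pearson r = 0.991), CD82 (0.982) and TCTN2 (0.976). CD82, a tetraspanin known as a metastasis suppressor in prostate cancer, averaged 182 ± 12.9 normalised counts in EloB KD, 50.8 ± 6.70 in EloC KD and 58.5 ± 11.8 in Control KD (SD, n = 3 each). Those nearest to EPHB2 were CD70 (0.997), MAP2K3 (0.992) and CLCF1 (0.989). CD70, a ligand of the tumour necrosis factor family, averaged 849 ± 62.3 in EloB KD, 3294 ± 93.0 in EloC KD and 1379.8 ± 257 in Control KD (SD, n = 3 each). Among the members, EPHB3 had r = 0.907 with EPHB1, at rank 184, and EPHA4 and EFNB1 had r = 0.855 each with EPHB2, at ranks 1023 and 1029. These correlations describe libraries that share their groups, depth and normalisation. The levels of EPHB1 and EPHB2 in these libraries chose the genes, so the correlations are a description with no test. EPHB1 reached the mean of 50 only through EloB KD, where it averaged 143, against 12.8 in EloC KD and 10.8 in Control KD.

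The rest of the family was taken from lists of textbook genes. The shares of all genes called, 20.5% in EloB KD and 42.5% in EloC KD, stand beside the counts that follow, each over 5 genes. Of the other Eph receptors, 5 of 6 were tested: 1 rose and 0 fell in EloB KD, and 3 rose and 1 fell in EloC KD. EPHA3 rose in both, by 0.47 ± 0.15 in EloB KD and 0.63 ± 0.15 in EloC KD on the log2 scale (SE; limma, adjusted p = 0.0447 and 0.00568). EPHA5 (0.76 ± 0.13, adjusted p = 0.00114) and EPHA6 (0.73 ± 0.21, adjusted p = 0.0180) rose in EloC KD, where EPHA10 fell by 1.35 ± 0.37 (adjusted p = 0.0128). Of the other ephrins 5 of 6 were tested: 0 rose and 1 fell in EloB KD, and 3 rose and 1 fell in EloC KD. The remaining B-type ligand, EFNB3, averaged 93.8 normalised counts in EloB KD and 70.7 in EloC KD, against 264 in Control KD. It fell by 1.47 ± 0.22 in EloB KD and by 1.86 ± 0.22 in EloC KD (SE; limma, adjusted p = 0.00145 and 0.00013). In EloC KD the A-type ligands EFNA5 (0.50 ± 0.15), EFNA1 (0.44 ± 0.15) and EFNA4 (0.37 ± 0.13) rose, with adjusted p of 0.0184, 0.0341 and 0.0400. EPHA7 (0.27 ± 0.18 in EloB KD, 0.11 ± 0.18 in EloC KD) and EFNA3 (-0.17 ± 0.22 and -0.41 ± 0.22 in the same order) did not pass. EPHA8 and EFNA2 had at most 2.97 normalised counts in any knockdown library.

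Genes that act with Eph receptors and ephrins, 71 tested of 76 listed (these other receptors and ephrins included), were called in 29.6% of cases in EloB KD (8 higher, 13 lower), against the 20.5% of all genes, and 50.7% in EloC KD (27 higher, 9 lower), against 42.5%. Of all genes 9.34% were called higher and 11.2% lower in EloB KD, and 21.3% and 21.2% in EloC KD. The list median log2 fold change was -0.02 in EloB KD and 0.21 in EloC KD, beside 0.0035 and 0.0068 over all genes tested. The list was not tested as a set, so its split by direction is a description only. Among the 8 ephrin-B tail binding proteins, SDCBP, the PDZ adaptor syntenin, fell by 1.23 ± 0.12 in EloB KD (SE; limma, adjusted p = 0.000171) and rose by 0.86 ± 0.12 in EloC KD (adjusted p = 0.000359). The Dishevelled genes DVL3 (0.78 ± 0.09) and DVL2 (0.52 ± 0.09) rose in EloC KD, where 3 of the 8 rose and 0 fell; in EloB KD 0 rose and 1 fell. Of the 14 receptor adaptors 2 rose and 5 fell in EloB KD and 4 rose and 3 fell in EloC KD. GRB10, an SH2 adaptor, fell by 0.87 ± 0.13 in EloB KD (adjusted p = 0.00112) and rose by 0.72 ± 0.13 in EloC KD (adjusted p = 0.00116). Other adaptors called in both knockdowns did not share this split. AFDN went the opposite way, averaging 1783 normalised counts in EloB KD, 957 in EloC KD and 1424 in Control KD. ANKS1A was lower in both, averaging 2220 in EloB KD, 1810 in EloC KD and 2688 in Control KD.

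Beside the counts of these small lists, 20.5% of all genes were called in EloB KD and 42.5% in EloC KD. Of the 8 GTPases and GTPase effectors listed, 1 rose and 2 fell in EloB KD, and 2 rose and 1 fell in EloC KD. LIMK1, the kinase that inactivates cofilin, rose by 1.02 ± 0.14 in EloB KD and 1.25 ± 0.14 in EloC KD on the log2 scale (SE; limma, adjusted p = 0.00100 and 0.000107). The GTPase genes CDC42 and RHOA fell in EloB KD by 0.70 ± 0.10 and 0.61 ± 0.10 (adjusted p = 0.00124 and 0.00207), and CFL1, the cofilin gene, fell in EloC KD by 1.06 ± 0.14 (adjusted p = 0.000261). The 9 tested exchange factors and GTPase regulators had 3 higher and 2 lower in each knockdown. ITSN1, an exchange factor for Cdc42 known to act with EphB2, rose by 0.51 ± 0.08 in EloB KD (adjusted p = 0.00243), and VAV3 fell by 0.67 ± 0.11 in EloC KD (adjusted p = 0.00096). Of the 7 non-receptor kinases 0 rose and 1 fell in EloB KD, and 3 rose and 0 fell in EloC KD. SRC fell by 0.48 ± 0.13 in EloB KD (adjusted p = 0.0292), and FYN (0.96 ± 0.11), ABL2 (0.99 ± 0.16) and YES1 (0.31 ± 0.09) rose in EloC KD. Of 5 tested phosphatases 0 were called in EloB KD and 3 rose in EloC KD, led by PTPRB at 1.81 ± 0.22 (adjusted p = 0.00014). Of the genes of shedding and cleavage, the sheddase ADAM17 rose by 0.78 ± 0.13 in EloC KD (adjusted p = 0.00103). Of 3 ubiquitin ligase genes 2 were tested, and 0 were called in EloB KD. CBL and CBLB rose in EloC KD by 0.63 each (adjusted p = 0.00329 and 0.0151), while SPSB4, whose BC-box protein is known to target EphB2, had at most 1.07 normalised counts in any knockdown library.

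In the peptide experiment EPHB1 had 0, 2.13 and 10.2 normalised counts with the WT peptide, 6.12, 2.89 and 4.84 with the mutant peptide, and 5.00, 0 and 9.85 with the scrambled peptide. Its mean was under 10, so it was not tested, and 10 reads was the most in any library. The other 9 members were tested, and 0 passed the threshold with the WT peptide against the scrambled peptide, where 1.43% of all 13105 genes did (limma). In that comparison 1753 genes, 3 members among them, had an unadjusted limma p under 0.05. There edgeR called 0 members and 198 of all genes, and DESeq2 2 members and 582 of all genes. The mutant peptide also gave 0 of 9 against the scrambled peptide, where the share of all genes was 0% (limma; 1142 genes, 2 members among them, had an unadjusted p under 0.05, and DESeq2 and edgeR called 0 members). The median log2 fold change of the 9 was -0.11 with the WT peptide and -0.14 with the mutant peptide, beside 0.0001 and -0.0010 over all genes. Both peptide comparisons share the scrambled-peptide libraries.

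EPHA2 had 20776, 19682 and 20481 normalised counts with the WT peptide, 22192, 20154 and 21098 with the mutant peptide, and 24100.1, 22938 and 23948 with the scrambled peptide. All WT and mutant libraries lay below the scrambled ones. The log2 change over the scrambled peptide was -0.22 ± 0.05 with the WT peptide (SE; limma, adjusted p = 0.0555) and -0.16 ± 0.05 with the mutant peptide (adjusted p = 0.310). With the replicate number as a block these adjusted p were 8.2e-05 and 0.00224, within ranges over the alternatives of 8.2e-05 to 0.221 and 0.00224 to 0.615.

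EFNB1 had 7307, 6266 and 6424 normalised counts with the WT peptide, 7089.8, 6606 and 6254 with the mutant peptide, and 7823, 7627 and 8019 with the scrambled peptide, and again WT and mutant libraries all lay below the scrambled ones. The change was -0.23 ± 0.07 with the WT peptide (SE; limma, adjusted p = 0.133) and -0.24 ± 0.07 with the mutant peptide (adjusted p = 0.283). The block gave adjusted p of 0.00159 and 0.00285, within ranges over the alternatives of 0.00159 to 0.386 and 0.00285 to 0.649.

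EPHA4 had 314, 262 and 330.0 normalised counts with the WT peptide, 384, 305 and 351 with the mutant peptide, and 441, 369 and 391 with the scrambled peptide. The WT libraries lay below the scrambled ones and the mutant libraries overlapped them. The log2 change was -0.41 ± 0.12 with the WT peptide (SE; limma, adjusted p = 0.154, 0.00213 with the block, 0.00213 to 0.458 over the alternatives). EPHB3 had 403, 453 and 400.3 with the WT peptide, 431, 411 and 311 with the mutant peptide, and 383, 357 and 301 with the scrambled peptide. The WT libraries lay above the scrambled ones, and the change was 0.27 ± 0.14 (limma, adjusted p = 0.436, 0.0405 with the block, 0.0405 to 0.653 over the alternatives).

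The block called 4 of 9 members with the WT peptide, where it called 16.2% of all genes, and 2 of 9 with the mutant peptide, where it called 8.3%. Groups did not overlap for 4 of 9 members with the WT peptide against 19.7% of all genes, and for 2 of 9 with the mutant peptide against 13.7%. Replicate 2 stood apart within the groups. EPHB2 had 647, 896 and 649.8 normalised counts with the WT peptide, 518, 797 and 625 with the mutant peptide, and 568, 799.6 and 596 with the scrambled peptide, so that replicate 2 was highest in each group. Replicate 2 was the highest in all 3 groups for 3 of the members and the lowest for 4 (EPHB6 among them), and the same held for 21.9% and 24.0% of the 13105 genes. The changes of EPHB2 were 0.16 ± 0.19 with the WT peptide and -0.02 ± 0.19 with the mutant peptide (SE; limma, adjusted p = 0.814 and 0.991). EPHB4 (0.06 ± 0.05), EPHB6 (-0.20 ± 0.23), EPHA1 (0.44 ± 0.32) and EFNB2 (-0.11 ± 0.09) had adjusted p of 0.690, 0.804, 0.629 and 0.667 with the WT peptide. With the mutant peptide the adjusted p of these 4, of EPHA4 and of EPHB3 lay between 0.698 and 0.999.

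**Figure D4:**
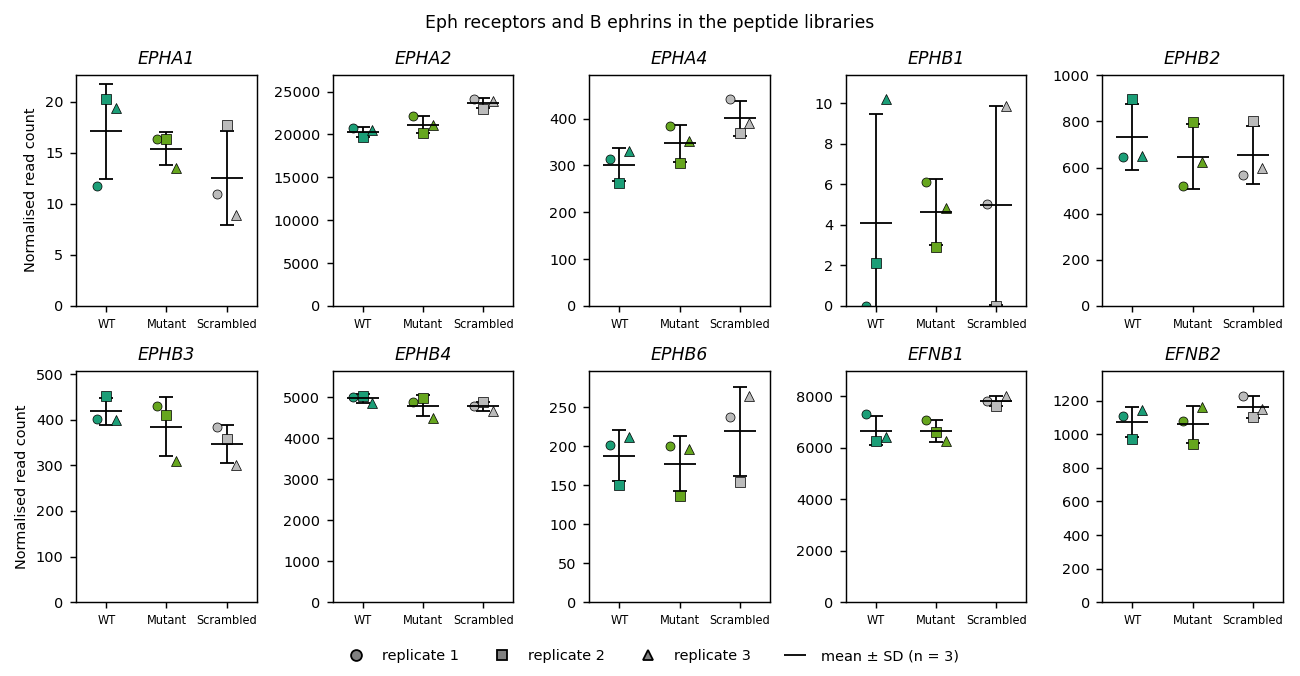
Normalised read count (y axis) of each member with the WT, mutant and scrambled peptide; points are libraries, shaped by replicate number, and bars the mean ± SD of 3 libraries. EPHA2 and EFNB1 are lower with the WT and mutant peptide than with the scrambled one, and replicate 2 is high for EPHB2 and low for EPHB6.

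**Figure D5:**
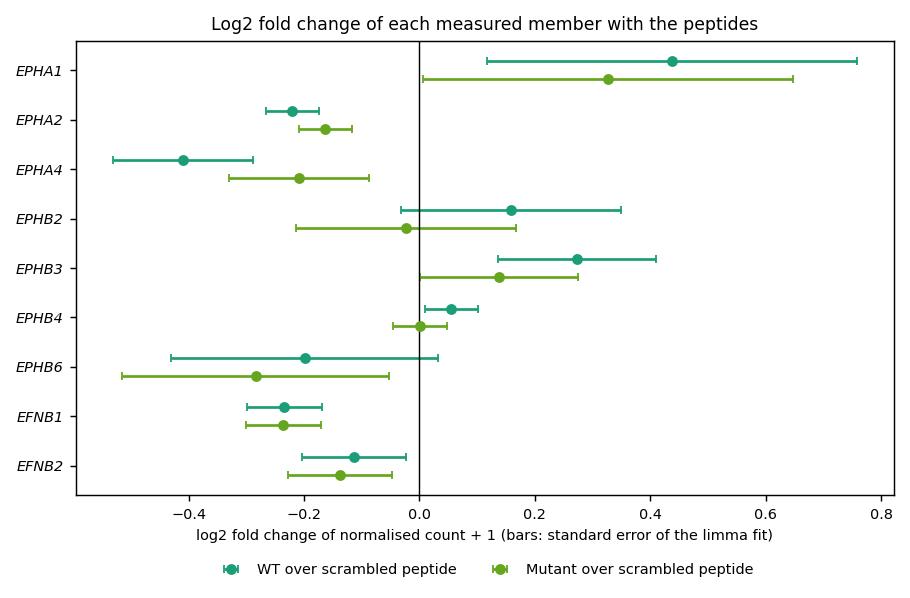
Log2 fold change over the scrambled peptide (x axis) of the 9 tested members with the WT and the mutant peptide; bars are standard errors of the limma fit. Members lie between -0.41 and 0.44, and EPHA2 and EFNB1 are on the same side of 0 with both peptides.

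The WT and the mutant peptide were compared directly at the same 12500 nM and 24 h. Of the 9 members 0 passed the threshold (limma; 0 had an unadjusted p under 0.05, and edgeR and DESeq2 called 0), where 0% of all genes did (898 with an unadjusted p under 0.05), and 0 of 9 had groups that did not overlap, against 12.1% of all genes. The log2 differences of the WT over the mutant peptide ranged from -0.20 for EPHA4 (95% interval -0.47 to 0.07) to 0.18 for EPHB2 (-0.24 to 0.61), with adjusted p of at least 0.820. For EPHA2 the difference was -0.06 (-0.16 to 0.05) and for EFNB1 0.0019 (-0.14 to 0.15). These intervals do not show that the peptides act alike. Among the 71 listed pathway genes 1 was called with the WT peptide against the scrambled one: MMP14, a membrane metalloprotease that can cleave EPHA2, fell by 0.29 ± 0.05 (SE; limma, adjusted p = 0.0329), and its change with the mutant peptide was -0.11 ± 0.05 (adjusted p = 0.619). Between the WT and the mutant peptide 0 of the 71 passed.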

How the data were processed

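Libraries came from a stranded poly(A) kit after DNase treatment of total RNA, per the labels' protocols. The submitters' processing notes name hg38, featureCounts and DESeq2, without versions. The authors deposited 1 table per experiment whose signal is the read count of a gene divided by a size factor of its library. As these 2 were normalised apart, no test crosses them. Dividing by the smallest step of a library gave back whole reads (100% of values within 0.05 reads) for the count tests.

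On log2(normalised count + 1), limma 3.58.1 in R 4.3.3 was run with its trend option. Genes averaging 10 or more across an experiment's 9 libraries entered it, which kept 13764 (knockdown) and 13105 (peptide). One spread was estimated over all 3 groups. The 2-sided p-values were adjusted by Benjamini-Hochberg across every gene in the fit, and 0.05 was the threshold. All 10 members passed the filter in the knockdown table and 9 in the peptide table. With 3 against 3 samples an exact permutation p cannot go below 0.1. Fold changes on this scale understate those of low genes. Per-length levels use GENCODE exon lengths of GRCh38, matched to 19286 genes.

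Same-number libraries deviated together in both experiments (correlations of 0.236 to 0.566 and 0.254 to 0.715; other pairs -0.439 to 0.0703 and -0.546 to 0.336). In the knockdown experiment replicate numbers thus pair the samples. With the peptides the ranges overlap: WT library 1 had 0.254 with scrambled library 1 and 0.336 with scrambled library 3. The pairing there is less clear outside replicate 2. It comes from the data in both experiments, and the main test leaves it out. edgeR 4.0.16 and DESeq2 1.42.0 on recovered reads, other scalings, pseudocounts and filters, the block and leaving out each replicate were alternatives. Leaving out replicate 2 of every peptide group was chosen after seeing the data. The members and gene lists were chosen with earlier results of these data known. Genes named are the members, the other Eph receptors and ephrins, up to 3 called genes per list with the smallest adjusted p, and the 3 genes most correlated with EPHB1 and with EPHB2. SPSB4 is outside this rule and was named after its values were seen. The authors' own tables of comparisons were not used. A few listed genes are not reported here.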

Additional observations from a re-analysis of the deposited data

How the results depend on the processing

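Of 128 values of called members under the alternatives, 113 kept their direction and their side of the threshold. EPHB3 in EloB KD and EPHA4, EFNB1 and EPHB6 in EloC KD were called under all 16 alternatives. Leaving out 1 library gave 1 to 3 called members in EloB KD against Control KD (1 without EloB KD replicate 1) and 3 to 5 in EloC KD (3 without EloC KD replicate 1 or 2 or Control KD replicate 2). Over all genes the same fits called 1915 to 2373 in EloB KD, against 2822 in the main fit. In EloC KD they called 4506 to 5413, against 5844. With the WT peptide the 0 called members became 4 with the replicate block, 1 with quantile scaling, 1 with a mean of at least 50, 2 with DESeq2 and 1 without replicate 2 of every group (0 to 1 when leaving libraries out); with the mutant peptide the block called 2. The cause was not tested. The block changed no member's call other than these and EPHA4 in EloB KD.

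Over all genes the block called 4996 against 2822 in EloB KD. With the WT peptide it called 2122 and DESeq2 582 against 188, with 66 to 258 when leaving libraries out. With the mutant peptide the block called 1088, DESeq2 184 and the fit without replicate 2 37, against 0, and between the WT and mutant peptide 536, 63 and 21, against 0.

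Values that changed sign were uncalled and near 0. Leaving out libraries gave log2 changes of -0.273 to 0.136 for EPHB6 and -0.0596 to 0.191 for EFNB1 in EloB KD and -0.188 to 0.152 for EPHB3 in EloC KD. With the mutant peptide they were -0.0296 to 0.0446 for EPHB4 (-0.0140 without replicate 2 of every group, -0.0048 with quantile scaling, -0.00047 with edgeR) and -0.185 to 0.129 for EPHB2. Between the WT and mutant peptide they were -0.0660 to 0.0490 for EFNB1 (-0.0192 with quantile scaling), -0.0227 to 0.347 for EPHA1, -0.0939 to 0.238 for EPHB6, -0.0600 to 0.0926 for EFNB2 and -0.0104 to 0.226 for EPHB3. At 8 to 15 reads a library, the EPHB1 level in EloC KD and Control KD is limited by counting.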

Other observations

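The control groups of the experiments, which differ in serum and treatment and were normalised separately, were set side by side per length with no test. EPHA2 averaged 98.4 ± 20.7 RPKM in Control KD and 170 ± 3.69 with the scrambled peptide, and EFNB1 42.0 ± 7.38 and 70.4 ± 1.58 (SD, n = 3 each). With Control KD before the scrambled peptide throughout, EPHB2 averaged 2.33 ± 0.302 and 1.56 ± 0.310, EPHB3 3.19 ± 0.566 and 2.28 ± 0.272, and EPHA1 0.175 ± 0.0176 and 0.0790 ± 0.0295. EFNB2 averaged 4.13 ± 0.455 and 6.90 ± 0.343, EPHA4 1.66 ± 0.588 and 1.58 ± 0.137, and EPHB4 21.8 ± 2.58 and 22.1 ± 0.582. EPHB6 averaged 0.756 ± 0.206 and 1.23 ± 0.318, and EPHB1 0.0311 ± 0.00574 and 0.0212 ± 0.0211.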
